A study of Homo sapiens with 6 samples.

Results

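The EGF receptor family and its ligands were followed in clones of KYSE150, a cultured line from a human squamous carcinoma of the oesophagus, as 10 genes chosen by symbol from the 40448 gene IDs listed in each library. They were the receptors EGFR, ERBB2 and ERBB3, the ligands AREG, EREG, HBEGF, TGFA, BTC and EPGN, and ERRFI1, an inhibitor of the receptors. Libraries from 3 clones stably carrying human NCCRP1 (clones 1, 6 and 17) were compared with libraries from 3 mock clones stably carrying the pIRES2-EGFP vector (clones 1, 4 and 5). All 6 clones derive from KYSE150, each gave 1 library of total RNA depleted of ribosomal RNA, and the labels do not name the promoter that drives NCCRP1. Labels keep the clones apart without saying whether cultures were repeated, so a p-value here reflects spread among 6 libraries.

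The EGF receptor family consists of cell-surface tyrosine kinases that dimerise when a ligand binds. The ligands are made as membrane-anchored precursors and are released by metalloproteases. AREG, EREG, HBEGF, TGFA, BTC and EPGN bind EGFR, and ERBB2 has no known ligand of its own and acts as a partner of the other receptors. In squamous epithelium this system drives the growth and survival of basal cells, and ERK signalling downstream of it induces both some ligands and inhibitors such as ERRFI1.

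NCCRP1 itself was at 6.19, 8.07 and 6.71 log2 RPKM in NCCRP1 clones 1, 6 and 17 and was listed at 0 in the 3 mock clones, as the labels state. The libraries had 12477 to 12821 genes above 0 and an estimated 12280000 to 18070000 reads. NCCRP1 clone 1 and mock clones 1 and 4 were read in sequencing run 15, and NCCRP1 clones 6 and 17 and mock clone 5 in run 14. A listed 0 means a level of at most 1 RPKM or no estimate, since the ubiquitously expressed genes TPT1 and UBB also stood at 0 in 6 of 6 libraries. Of 8 squamous epithelium markers, 7 were above 0 in every library and the other in only some. Their summed level was 1030 to 2240 RPKM in NCCRP1 clones and 1600 to 2020 RPKM in mock clones. The 5 leukocyte markers were listed at 0 throughout, as were 4 of 5 endothelial markers (all but CDH5) and 5 of 6 fibroblast markers (all but COL1A1).

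The receptors were the most abundant members and lay within a narrow band in all 6 clones. EGFR, the receptor that all 6 ligands bind, was at 5.46, 5.57 and 5.41 log2 RPKM in NCCRP1 clones 1, 6 and 17, and mock clones 1, 4 and 5 stood at 5.44, 5.36 and 5.51. The groups overlapped, and no clone stood apart. In linear units this was 44.1, 47.4 and 42.5 RPKM in the NCCRP1 clones and 43.3, 41.2 and 45.7 RPKM in the mock clones, from an estimated 5900 to 9000 reads per library. The log2 difference was 0.041 with a 95% interval of -0.25 to 0.33, so the data allow an EGFR level in NCCRP1 clones between 0.841 and 1.26 times the mock level (limma adjusted p = 0.989). In bulk RNA, fewer expressing cells and less RNA per cell cannot be told apart, here and for every gene below.

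ERBB2, the partner receptor, was at 5.52, 5.61 and 5.72 log2 RPKM in NCCRP1 clones 1, 6 and 17, with mock clones 1, 4 and 5 at 5.56, 5.55 and 5.51. NCCRP1 clones 6 and 17 were above all mock clones by a small margin, while NCCRP1 clone 1 lay among them. The fold was 1.05 with a 95% interval of 0.863 to 1.29 (limma adjusted p = 0.967). ERBB3, a receptor with an impaired kinase that signals through partners, was at 4.61, 4.90 and 4.91 log2 RPKM in NCCRP1 clones 1, 6 and 17, whereas mock clones 1, 4 and 5 had 4.75, 4.88 and 4.82. Its groups also overlapped, at a fold of 0.993 with a 95% interval of 0.799 to 1.23 (limma adjusted p = 0.997). Within run 15 and run 14 the differences were 0.061 and -0.026 for EGFR, -0.037 and 0.16 for ERBB2, and -0.21 and 0.089 for ERBB3.

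Levels in RPKM are scaled to gene length, so members can be ordered by their mean over the 6 libraries. ERBB2 and EGFR led at 5.58 ± 0.08 and 5.46 ± 0.07 log2 RPKM (SD, n = 6), with ERBB2 the higher in 5 of 6 libraries and a mean difference of 0.12 that equalled its SD. ERBB3 followed at 4.81 ± 0.12, below EGFR in every library. ERRFI1 at 3.85 ± 0.29 and TGFA at 3.75 ± 0.23 had overlapping ranges, and each was the higher in 3 of 6 libraries. AREG at 2.71 ± 0.43 and HBEGF at 1.18 ± 0.55 each lay below the preceding gene in every library. The AREG level is uncertain because of a duplicate gene copy described below, so its place in this order is too. BTC lay below HBEGF in 5 of 6 libraries with overlapping ranges, since in mock clone 5 it was at 1.04 and HBEGF at 0.73. BTC was otherwise at 0.15 or less, EREG at 0.42 or less and EPGN at 0, and the order of these 3 genes is not resolved.

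**Figure D1:**
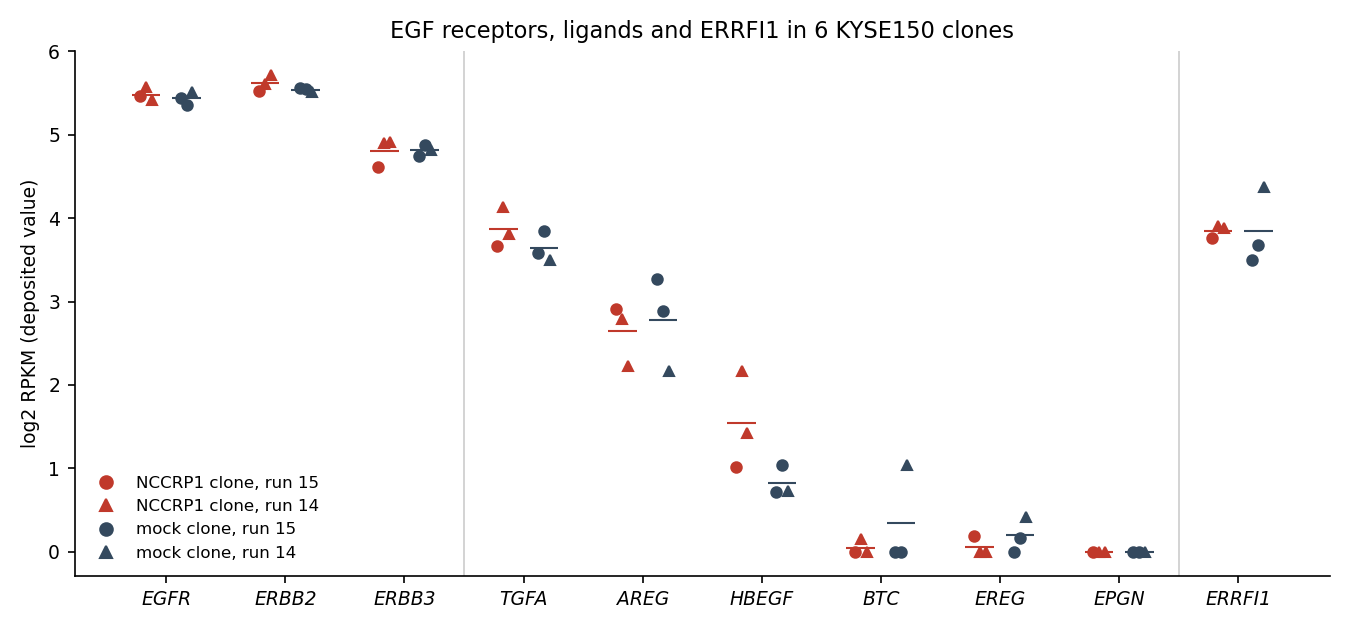
Log2 RPKM of the 10 genes (vertical axis) in the 3 NCCRP1 clones (red, left of each gene) and the 3 mock clones (dark, right), with circles for run 15, triangles for run 14 and a bar at each group mean. The receptors lie between 4.61 and 5.72, TGFA, AREG and HBEGF between 0.72 and 4.13, and EPGN at 0 in every clone; the groups overlap for each of the 10 genes.

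Of the 6 ligands, TGFA, AREG and HBEGF were above 0 in every library. TGFA, which encodes transforming growth factor alpha, was at 3.67, 4.13 and 3.81 log2 RPKM in NCCRP1 clones 1, 6 and 17, and mock clones 1, 4 and 5 stood at 3.58, 3.84 and 3.50. NCCRP1 clone 6 was the highest, and the other NCCRP1 clones lay within the range of the mock clones. The fold was 1.17 with a 95% interval of 0.903 to 1.52 (limma adjusted p = 0.875). Within runs the difference was -0.041 in run 15 and 0.47 in run 14.

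HBEGF, the heparin-binding ligand, had the largest difference of the tested members and did not pass the test. It was at 1.02, 2.17 and 1.43 log2 RPKM in NCCRP1 clones 1, 6 and 17, with mock clones 1, 4 and 5 at 0.72, 1.04 and 0.73. NCCRP1 clones 6 and 17 were above every mock clone, and NCCRP1 clone 1 was just below mock clone 4. The log2 difference was 0.71 (SE 0.29), a 1.64-fold higher mean with an unadjusted 95% interval of 1.06 to 2.54 (limma adjusted p = 0.594). By an exact two-sided permutation test over the 6 libraries p was 0.2, and 3 against 3 libraries cannot give less than 0.1.

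NCCRP1 clone 1 exceeded the mean HBEGF level of mock clones 1 and 4 by 0.15 in run 15, whereas NCCRP1 clones 6 and 17 averaged 1.07 more than mock clone 5 in run 14. Without NCCRP1 clone 6 the difference was 0.40, and with run as a term it was 0.61 (limma adjusted p of 0.981 and 0.554). HBEGF rested on an estimated 48 to 170 reads per library, which gives a counting error of 0.11 to 0.21 on the log2 scale, against an SD of 0.58 among NCCRP1 clones and 0.18 among mock clones. The interaction of group and run, added after these values were seen, was 0.93 with a 95% interval of -0.33 to 2.19 and did not pass (limma adjusted p = 0.558).

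AREG, which encodes amphiregulin, was at 2.91, 2.79 and 2.23 log2 RPKM in NCCRP1 clones 1, 6 and 17, whereas mock clones 1, 4 and 5 had 3.27, 2.89 and 2.17. Mock clones held both the highest and the lowest value. The fold was 0.914 with a 95% interval of 0.592 to 1.41 (limma adjusted p = 0.977). For AREG the 3 libraries of run 14 (2.17 to 2.79) were all below the 3 of run 15 (2.89 to 3.27). The nearest values were thus 2.79 and 2.89, at an estimated counting error of 0.11 to 0.16. The run difference was -0.66 in the fit with both terms and did not pass (limma adjusted p = 0.28). It was read out after these values were seen, and the share of all genes that separate by run was not counted. With run as a term the difference between NCCRP1 and mock clones was 0.089, where it was -0.13 without that term. Its values within runs were -0.16 in run 15 and 0.34 in run 14. The hg19 assembly carries a duplicate of this gene, AREGB, which RefSeq now lists as a synonym, and reads could have been split or dropped between the copies, so the AREG level is uncertain.

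The other ligands were listed at 0 in at least 3 of 6 libraries. EREG, which encodes epiregulin, was at 0.19, 0 and 0 log2 RPKM in NCCRP1 clones 1, 6 and 17 and at 0, 0.17 and 0.42 in mock clones 1, 4 and 5, and with 3 libraries above 0 it entered the test without passing (limma adjusted p = 0.966). BTC, which encodes betacellulin, was above 0 only in NCCRP1 clone 6 at 0.15 and in mock clone 5 at 1.04, and it was not tested. EPGN, which encodes epigen, was listed at 0 in all 6 libraries. No fold is given for these 3 genes.

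Summed in linear units, TGFA, AREG and HBEGF came to 22.3, 28.9 and 21.4 RPKM in NCCRP1 clones 1, 6 and 17, and mock clones 1, 4 and 5 stood at 23.2, 23.8 and 17.5 RPKM. TGFA made up most of this sum in every clone, with 57.1%, 60.5% and 65.4% in the NCCRP1 clones and 51.4%, 60.3% and 64.8% in the mock clones. AREG reads could have been split or dropped between gene copies, as given above, so the sum and all shares are uncertain. In mock clone 1, TGFA was at 11.9 RPKM and AREG at 9.64 RPKM. HBEGF contributed 9.12%, 15.5% and 12.7% in the NCCRP1 clones and 7.07%, 8.64% and 9.48% in the mock clones. The summed level overlapped between the groups, and the share of HBEGF did too.

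**Figure D2:**
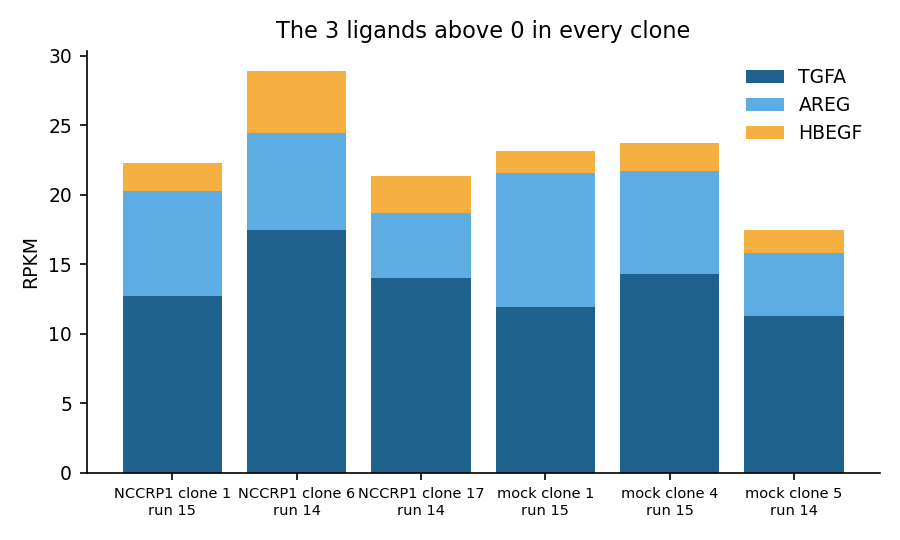
Stacked levels in RPKM (vertical axis) of TGFA, AREG and HBEGF, the ligands above 0 in every library, in each NCCRP1 clone (left) and mock clone (right), with the sequencing run under each bar. The stack is tallest in NCCRP1 clone 6 at 28.9 RPKM and lowest in mock clone 5 at 17.5 RPKM, and TGFA is the largest part of all 6 bars. The AREG part is uncertain because hg19 carries a duplicate of the gene.

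In NCCRP1 clones the order of HBEGF (clone 6 over 17 over 1) was also the order of NCCRP1 itself, at 8.07, 6.71 and 6.19 log2 RPKM. TGFA and ERRFI1 had this order too, so it held for 3 of the 7 members above 0 in every library. Of all 11927 genes above 0 in every library, 18.0% had it. NCCRP1 clones 6 and 17 were read in run 14 and NCCRP1 clone 1 in run 15. For the place of NCCRP1 clone 1 in this order, NCCRP1 level and sequencing run therefore cannot be told apart. The step from clone 6 to clone 17 lies within run 14 and rests on 1 library each. For ERRFI1, NCCRP1 clones 6 and 17 were close, at 3.90 and 3.88 log2 RPKM. With 3 clones the order is a description and was not tested.

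AREG, EREG, EPGN and BTC lie next to each other on chromosome 4 in RefSeq order, yet AREG alone was above 0 in every library, so promoter sequence was set beside the levels. RefSeq promoters of GRCh38.p14, from 250 bases before to 50 after the annotated start, were matched by symbol for 9 of the 10 members (all but ERBB3). Those of AREG, the expressed gene of the chromosome 4 group, of EPGN, its neighbour listed at 0, of TGFA, the ligand with the highest listed level, and of HBEGF, the ligand with the largest difference, are shown 5′ to 3′. They lie at chr4:74444886-74445185 on the plus strand (AREG), chr4:74308220-74308519 on the plus strand (EPGN), chr2:70553777-70554076 on the minus strand (TGFA, the more upstream of its promoters) and chr5:140346554-140346853 on the minus strand (HBEGF). Capitals mark TATAAA, the cAMP response element TGACGTCA and the GC box GGGCGG, each on either strand.
AREG: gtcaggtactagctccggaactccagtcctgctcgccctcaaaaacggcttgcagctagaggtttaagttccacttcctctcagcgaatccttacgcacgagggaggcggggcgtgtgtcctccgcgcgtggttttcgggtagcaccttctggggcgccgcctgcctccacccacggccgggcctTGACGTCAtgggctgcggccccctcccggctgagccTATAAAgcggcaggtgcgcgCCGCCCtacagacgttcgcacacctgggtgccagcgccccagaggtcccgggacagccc
EPGN: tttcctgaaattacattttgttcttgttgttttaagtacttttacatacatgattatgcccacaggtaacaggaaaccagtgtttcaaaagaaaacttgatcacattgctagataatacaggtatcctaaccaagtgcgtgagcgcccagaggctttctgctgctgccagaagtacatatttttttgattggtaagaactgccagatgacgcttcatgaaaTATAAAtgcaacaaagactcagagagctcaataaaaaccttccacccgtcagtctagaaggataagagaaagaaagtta
TGFA: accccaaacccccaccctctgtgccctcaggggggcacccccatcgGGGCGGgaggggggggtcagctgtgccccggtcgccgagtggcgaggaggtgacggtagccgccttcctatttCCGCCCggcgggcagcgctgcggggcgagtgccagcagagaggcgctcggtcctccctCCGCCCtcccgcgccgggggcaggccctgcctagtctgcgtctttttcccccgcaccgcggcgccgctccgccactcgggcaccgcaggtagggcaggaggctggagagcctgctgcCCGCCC
HBEGF: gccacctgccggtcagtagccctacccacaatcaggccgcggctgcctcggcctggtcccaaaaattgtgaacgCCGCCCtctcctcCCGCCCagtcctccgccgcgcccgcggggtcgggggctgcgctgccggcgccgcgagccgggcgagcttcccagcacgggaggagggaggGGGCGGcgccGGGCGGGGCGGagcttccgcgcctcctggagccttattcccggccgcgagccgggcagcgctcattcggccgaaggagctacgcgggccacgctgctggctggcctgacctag

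AREG, EREG and EPGN each held a TATAAA, which starts 29, 32 and 29 bases before the annotated start, and BTC, TGFA, HBEGF, ERBB2, ERRFI1 and the more upstream EGFR promoter held none. Of all 35116 RefSeq promoters, 11.5% held TATAAA. AREG also held TGACGTCA, 65 bases before the start, a palindrome found in 1.85% of all promoters and in no other member. HBEGF held 5 matches to GGGCGG, 2 of which overlap, the promoter of TGFA shown held 4 and the more upstream EGFR promoter 3. Of all promoters 45.0% held at least 1. The AP-1 motif TGANTCA (7.71% of all promoters) occurred in the ERBB2 promoter and in the more downstream EGFR promoter, and in no ligand.

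The ligands above 0 in every library had promoters with more CpG than the median RefSeq promoter, and the others had less. The ratio of observed to expected CpG was 0.82 for AREG, 0.90 for HBEGF and 0.71 and 0.75 for the 2 TGFA promoters, against 0.38 for EPGN, 0.42 for BTC and 0.49 for EREG. The median over all promoters was 0.58. EGFR (0.89 and, for the more downstream promoter, 0.08), ERBB2 (0.87) and ERRFI1 (1.13) were above the median with at least 1 promoter. Among expressed members the ratio did not follow the level: that of HBEGF exceeded those of TGFA and ERBB2 while its level was the lowest of the 7. These are descriptions over 9 genes, without a test.

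**Figure D3:**
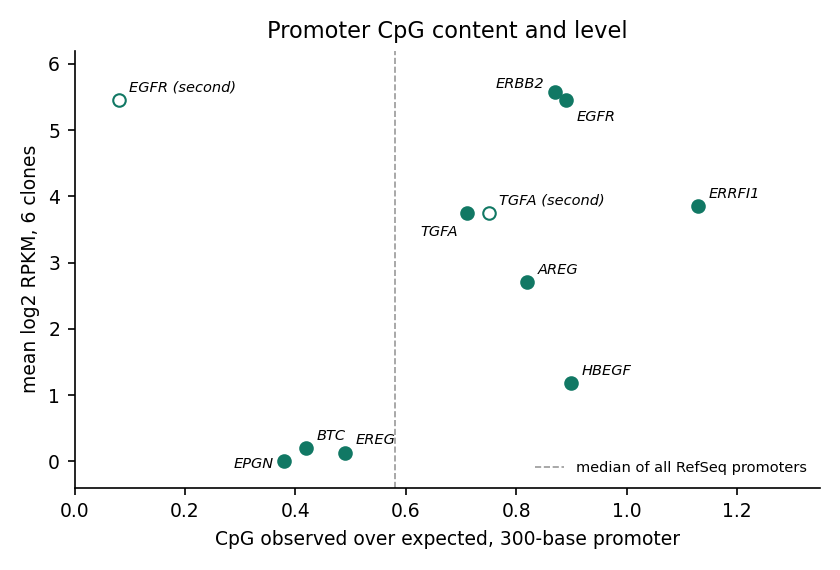
Mean log2 RPKM over the 6 clones (vertical axis) against the observed over expected CpG ratio of each 300-base RefSeq promoter (horizontal axis), with open circles for the more downstream promoter of TGFA and EGFR and a dashed line at the median of all promoters, 0.58. EPGN, BTC and EREG lie left of the line at mean levels of 0.20 or less, and the other 6 genes have at least 1 promoter to its right.

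ERRFI1, also called MIG6, binds the kinase domains of the receptors and inhibits them. It was at 3.76, 3.90 and 3.88 log2 RPKM in NCCRP1 clones 1, 6 and 17, with mock clones 1, 4 and 5 at 3.50, 3.68 and 4.37. Mock clone 5 was the highest and mock clones 1 and 4 the lowest, so all NCCRP1 clones lay inside the mock range. The fold was 0.997 with a 95% interval of 0.723 to 1.38 (limma adjusted p = 0.998). In the opposite direction to AREG, the 3 libraries of run 14 (3.88 to 4.37) were all above the 3 of run 15 (3.50 to 3.76). The run difference was 0.45 in the fit with both terms and did not pass (limma adjusted p = 0.303). It was likewise read out after these values were seen, without the share of all genes that separate by run. With run as a term the difference between NCCRP1 and mock clones was -0.16, where it was -0.0039 without that term. Without mock clone 5 the log2 difference was 0.26 (limma adjusted p = 0.536), and within runs it was 0.17 in run 15 and -0.48 in run 14. The interaction of group and run, added after values were seen, was -0.65 with an unadjusted 95% interval of -1.21 to -0.086. It did not pass (limma adjusted p = 0.43), and each run holds only 1 library of a group.

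Across the members, 0 of the 8 tested genes passed limma's test, 1 (HBEGF) had an unadjusted p under 0.05, and 0 had groups that did not overlap. Over all 12737 tested genes, 0.102% passed, 7.33% had an unadjusted p under 0.05 and 12.8% had groups that did not overlap. The median log2 difference of the 8 members was 0.018, against -0.0157 over all tested genes. HBEGF, at 0.71, lay above 98.6% of all tested genes, and the other 6 members above 0 in every library lay inside the central 95% of genes, from -0.56 to 0.55.

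**Figure D4:**
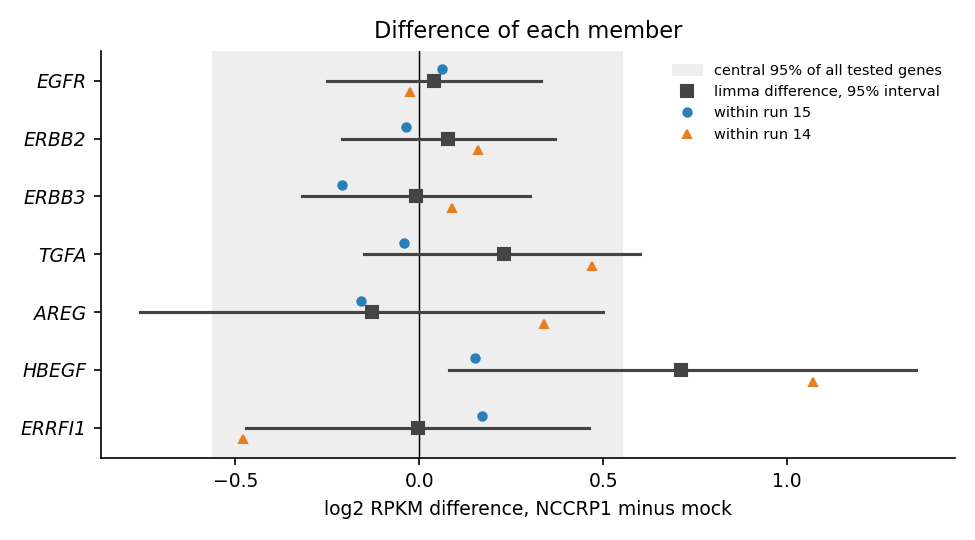
Log2 RPKM difference, NCCRP1 minus mock clones (horizontal axis), for the 7 members above 0 in every library: squares with lines give the limma difference and its unadjusted 95% interval, circles and triangles the differences within run 15 and run 14, and the grey band the central 95% of all tested genes. HBEGF is the only member whose square lies right of the band, and its triangle at 1.07 stands far from its circle at 0.15.

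The members also differed in how much they varied between libraries of a group. The pooled SD was 0.08 for EGFR and 0.07 for ERBB2, lower than in all but 5.83% of 1440 and 4.52% of 1371 genes with a mean within 0.5 of theirs. For AREG it was 0.47, above 94.6% of 2346 genes of like mean, and for ERRFI1 0.33, above 87.6% of 2466. TGFA was near the middle of its genes (52.8%), ERBB3 at 24.2% and HBEGF at 83.8%. Each group mixes libraries of both runs, so each pooled SD includes any difference between runs as well as between clones. The estimated counting error of AREG was 0.11 to 0.16, and that of ERRFI1 0.04 to 0.06.

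For each expressed ligand and ERRFI1, the genes with the most similar profile were those with the lowest root mean square difference of mean-centred log2 RPKM over the 6 libraries, among 9632 genes. ABL2, a non-receptor tyrosine kinase gene, was nearest to TGFA (0.0268, where TGFA itself varied by 0.206 about its mean), followed by BASP1 and FXYD3. For HBEGF, which varied by 0.50, the nearest were the transcribed pseudogene SFTA1P (0.118), the cyclin D1 gene CCND1 (0.147) and TINAGL1 (0.157). For AREG they were EMC9, SEC13 and MRPL27 (0.0887 to 0.0921), and for ERRFI1 BROX, NFYB and FGD5-AS1 (0.0305 to 0.0364). The ranking is a description over 6 libraries, without a test.

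The tested genes that flank the members were examined as a check on regional shifts. Of 44 genes, the nearest 3 tested protein-coding genes on each side of each member, 0 passed limma's test, and their median log2 difference was -0.01. The 44 include the members EREG and AREG, which flank other chromosome 4 ligands. For HBEGF the 6 flanking genes ran from -0.21 (CYSTM1) to 0.12 (ANKHD1). Next to the chromosome 4 ligands, the chemokine gene CXCL2 had a mean log2 RPKM of 4.08 ± 0.35 in NCCRP1 clones and of 2.83 ± 0.24 in mock clones (SD, n = 3 each; limma adjusted p = 0.0599). CXCL8, in the same stretch, averaged 1.23 ± 0.65 in NCCRP1 clones and 0.23 ± 0.40 in mock clones (limma adjusted p = 0.462). CXCL1, between these genes, averaged 0.78 ± 0.56 in NCCRP1 clones and was listed at 0 in the mock clones (limma adjusted p = 0.52). The groups of CXCL2 did not overlap, which held for 12.8% of all tested genes, and those of CXCL8 did. CXCL1 entered the test only through the NCCRP1 clones, against listed zeros. Neither its p nor its lack of overlap is therefore support for a difference. EREG and AREG beyond them had means of 0.06 and 2.64 in NCCRP1 clones and 0.20 and 2.77 in mock clones. The median difference of the flanking genes was 0.47 for EREG and for EPGN, 0.083 for AREG and -0.0096 for BTC.

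Of 71 further genes of the pathway in 6 lists, 61 were tested, and 0 rose and 0 fell by limma, where 0.0707% of all tested genes rose and 0.0314% fell. An unadjusted p under 0.05 was found for 9 of the 61, and 13 had groups that did not overlap, beside 7.33% and 12.8% of all tested genes. Their median log2 difference was 0.036.

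Of the remaining receptor and ligands of the family, NRG1 alone was above 0, at 1.83 ± 0.23 log2 RPKM in NCCRP1 clones and 1.69 ± 0.28 in mock clones (SD, n = 3 each). ERBB4, EGF, NRG2, NRG3 and NRG4 were listed at 0 in every library. Among genes of ligand shedding, all 6 tested had a higher mean in NCCRP1 clones and none passed. Their median difference was 0.18, against -0.0157 over all tested genes. The differences of ADAM17, ADAM15 and RHBDF1 (0.1, 0.1 and 0.091) were smaller than their SE (0.14, 0.16 and 0.2). RHBDF1 was at -0.38 within run 15. RHBDF2, which encodes an iRhom that carries ADAM17 to the cell surface, was at 4.62, 4.69 and 4.80 in NCCRP1 clones 1, 6 and 17, whereas mock clones 1, 4 and 5 had 4.36, 4.53 and 3.88, without overlap (limma adjusted p = 0.587). ADAM17 itself, the main sheddase of AREG, HBEGF and TGFA, named for this role after its values were seen, averaged 4.28 ± 0.10 in NCCRP1 clones and 4.18 ± 0.06 in mock clones. ADAM9 and ADAM10, related metalloproteases, had differences of 0.39 and 0.25 (limma adjusted p of 0.688 and 0.876).

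The adaptor and RAS to ERK genes were all tested, 16 of 16, with 5 higher and 11 lower means and a median difference of -0.044. SHC1, which encodes an adaptor that docks on activated receptors, averaged 5.63 ± 0.06 log2 RPKM in NCCRP1 clones and 5.20 ± 0.08 in mock clones (SD, n = 3 each). Its groups did not overlap and its differences within runs were 0.37 and 0.48 (limma adjusted p = 0.396). MAP2K2, an ERK kinase gene, averaged 6.06 ± 0.10 in NCCRP1 clones and 5.38 ± 0.47 in mock clones, where mock clone 5 was lowest at 4.84 (limma adjusted p = 0.396). MAP2K1 averaged 5.70 ± 0.31 in NCCRP1 clones and 5.37 ± 0.22 in mock clones, with overlap.

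In the branch of PI3K, phospholipase C, SRC and STAT genes, 10 of 10 were tested, 5 higher and 5 lower. Of the 10, 4 had groups that did not overlap, in both directions, beside 12.8% of all tested genes. The phosphoinositide 3-kinase subunit gene PIK3R1 averaged 0.29 ± 0.20 in NCCRP1 clones and 0.73 ± 0.13 in mock clones, and STAT3 6.38 ± 0.08 in NCCRP1 clones and 6.11 ± 0.12 in mock clones (SD, n = 3 each; limma adjusted p of 0.706 and 0.752). The Janus kinase gene JAK1 had a difference of 0.23 (limma adjusted p = 0.771). Among receptor inhibitors and genes of receptor downregulation, 13 of 14 were tested, 6 higher and 7 lower. SOCS3, a suppressor of cytokine signalling, averaged 4.74 ± 0.41 in NCCRP1 clones and 4.21 ± 0.37 in mock clones, and the phosphatase genes PTPRJ and PTPN1 had differences of 0.58 and 0.17 (limma adjusted p of 0.659, 0.674 and 0.875).

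Genes that ERK signalling is known to induce gave 10 higher and 5 lower means among 15 tested of 17, with a median of 0.048, and 5 of the 15 had groups that did not overlap, beside 12.8% of all tested genes. IER3, an immediate early gene, was at 5.84, 5.93 and 5.76 log2 RPKM in NCCRP1 clones 1, 6 and 17, and mock clones 1, 4 and 5 stood at 5.29, 5.18 and 5.18. All NCCRP1 clones were above all mock clones, by 0.60 within run 15 and 0.67 within run 14 (limma adjusted p = 0.142). DUSP5, a nuclear ERK phosphatase gene, and PHLDA1 had differences of 0.81 and 0.62 (limma adjusted p of 0.36 and 0.415). CCND1, chosen here because it lay close to HBEGF, averaged 5.52 ± 0.41 in NCCRP1 clones and 4.93 ± 0.05 in mock clones. Its differences within runs were 0.19 and 0.78 (limma adjusted p = 0.451). ETV4, named after its values were seen as the fifth gene without overlap, went the other way, with a difference of -0.31 (limma adjusted p = 0.688). Also named after their values were seen, the early response gene EGR1 averaged 7.11 ± 0.44 in NCCRP1 clones and 7.08 ± 0.43 in mock clones, and FOSL1 4.59 ± 0.34 in NCCRP1 clones and 4.45 ± 0.24 in mock clones, with overlap for both. SPRY1, a feedback inhibitor named on the same footing, averaged 0.76 ± 0.16 in NCCRP1 clones and 0.35 ± 0.40 in mock clones. SPRY1 was listed at 0 in mock clone 4, and its groups also overlapped (limma adjusted p = 0.818). The other tested genes of this list had differences of -0.1 (SPRY2), 0.036 (SPRED1), 0.048 (SPRED2), 0.055 (DUSP4), -0.031 (FOS), -0.085 (MYC) and -0.14 (ETV5). DUSP6 and SPRY4 were listed at 0.

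**Figure D5:**
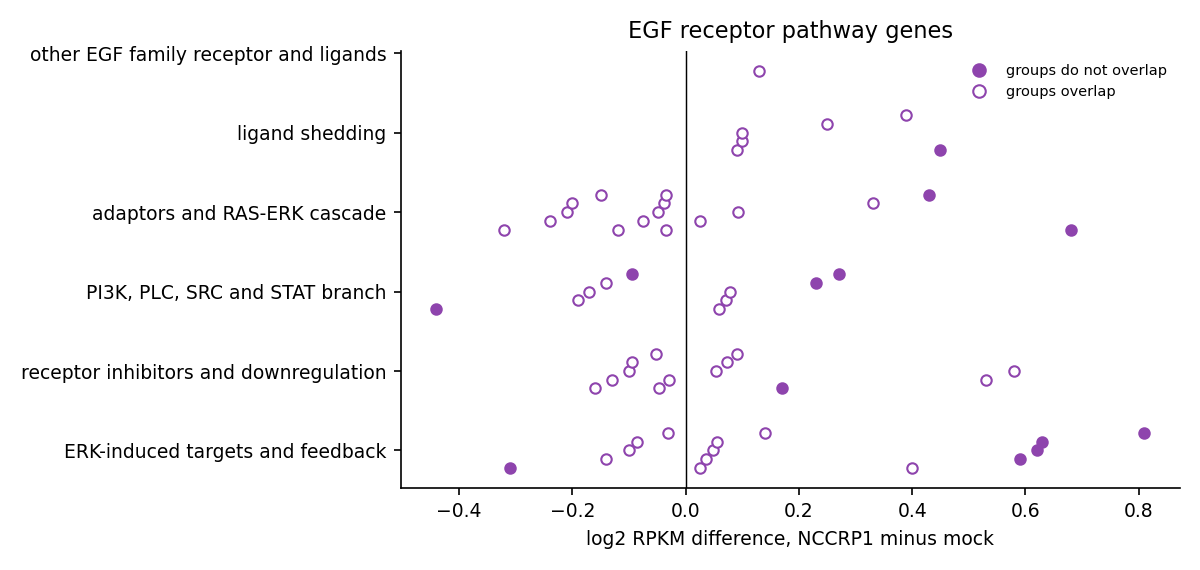
Log2 RPKM difference, NCCRP1 minus mock clones (horizontal axis), of the 61 tested pathway genes in 6 lists, 1 point per gene, filled where the groups do not overlap; points are offset vertically for legibility. The points spread on both sides of 0 in 4 lists, all 6 shedding genes lie right of 0, and the largest differences are those of DUSP5 at 0.81 and MAP2K2 at 0.68.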

How the data were processed

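Gene expression was measured by RNA sequencing on the Ion Torrent platform in 6 KYSE150 clones, per the labels' protocols. The authors deposited 1 value per Entrez gene ID, named RPKM per the file headers (reads scaled to exon length and library size). The deposited values are log2 RPKM: raised from base 2 and multiplied by GENCODE exon length they summed to 1140000 to 1150000 per library, against at least 11480000 if they were natural logarithms. The submitters' processing notes name hg19 and bedtools 2.25.0 without roles; the aligner is not given in the sources used here. Symbols of 37997 IDs came from RefSeq.

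Differences were fitted to the log2 values with group as the only term, using limma 3.58.1 (R 4.3.3) with trended, robust empirical Bayes and two-sided tests, in genes above 0 in at least 3 of 6 libraries. P-values were adjusted by the Benjamini-Hochberg method over all 12737 such genes, at a threshold of 0.05. The fit was tested on simulated data. Depth was estimated from low microRNA values, of which 24.3% to 35.8% were whole reads to within 0.01 (2% by chance for a step not chosen to fit). It was searched from 10000000 to 20000000 reads, too few values were whole to recover counts, and estimated reads cover counting error only. Exon lengths for estimated reads are those of GRCh38, not of the authors' annotation.

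Named genes were the 10 members, NCCRP1, the 3 genes of lowest p in each of 6 pathway lists, the 3 genes most like each expressed ligand and ERRFI1, and flanking genes. ETV4, ADAM17, ADAM15, RHBDF1, EGR1, FOSL1, SPRY1 and the remaining tested ERK-induced genes were added after their values were seen. The members and lists were chosen with earlier results of these data known. Alternatives were a pseudocount of 1 or 0.1, other filters, robust=FALSE, run as a term, its interaction with group, median and quantile scaling, and each clone left out. Coordinates of promoters are of GRCh38.p14.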

Additional observations from a re-analysis of the deposited data

How the results depend on the processing

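In all 14 alternative settings, 0 members and 0 pathway genes passed, and HBEGF (0.40 to 0.97), TGFA (0.097 to 0.33) and ERBB2 (0.025 to 0.13) kept a positive difference. HBEGF's limma adjusted p ran from 0.283 to 0.981. Leaving out 1 clone at a time gave -0.43 to 0.12 for AREG, -0.0035 to 0.078 for EGFR, -0.064 to 0.089 for ERBB3 and -0.18 to 0.26 for ERRFI1, so their sign is not fixed. AREG was also positive (0.089) with run as a term, and with libraries centred on their median ERRFI1 was at 0.01 and ERBB3 at 0.0039. The cause of these turns was not tested.

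Over all genes, 13 passed (9 higher, 4 lower). With libraries centred on their median 13 passed again (9 higher, 4 lower), and with quantile normalization 10 did (6 higher, 4 lower). The other counts were 4 with log2(RPKM + 1) (2 higher, 2 lower), 1 with log2(RPKM + 0.1) (1 higher, 0 lower) and 3 with no filter (1 higher, 2 lower). They were 7 for genes above 0 in all libraries (5 higher, 2 lower), 5 with robust=FALSE (2 higher, 3 lower) and 2 with run as a term (2 higher, 0 lower). Without 1 clone they ran from 0 (mock clone 5) to 29 (NCCRP1 clone 1), with 0 to 24 higher and 0 to 5 lower. No paired analysis was possible because the groups share only the clone number 1, which does not tie the clones together. Where they were above 0, the estimated counting error was largest for HBEGF (0.11 to 0.21), BTC (0.15 to 0.20), EREG (0.15 to 0.18) and AREG (0.11 to 0.16). BTC and EPGN were above 0 in too few libraries to be tested, and EREG's test rests on 3 listed zeros.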
